A study of Mus musculus with 6 samples.

Results

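The 10 genes described here encode the 6 Trithorax-type H3K4 methyltransferases *Kmt2a*, *Kmt2b*, *Kmt2c*, *Kmt2d*, *Setd1a* and *Setd1b*, their partners *Men1* and *Cxxc1*, and the H3K27 demethylases *Kdm6a* and *Kdm6b*. They were chosen by gene symbol, as activities that oppose Polycomb, and all 10 were found among the 19338 gene symbols of the deposited table. Each of the 10 had 1 transcript entry, so no choice between entries was needed.

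Nuclear RNA was sequenced from mouse embryonic stem (ES) cells of the genotype RYBPfl/fl;YAF2-/-, in which *Yaf2* had been removed by genome editing and *Rybp* is flanked by loxP sites. The 3 untreated libraries (UNT) came from these cells as grown, and the 3 tamoxifen libraries (OHT) from the same cells given 800 nM 4-hydroxytamoxifen for 96 hr, which activates a Cre recombinase that deletes *Rybp*. Both groups therefore lack YAF2, the line was grown from a picked colony, and no library came from tamoxifen-treated cells without floxed *Rybp*. The values used here are base means, that is, counts normalized for library size and averaged by the authors over all 6 libraries. A base mean has no spread between replicates and pools UNT with OHT, so the levels below carry no error, no difference between them was tested, and nothing is said of the effect of *Rybp* deletion on any gene.

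H3K4 methylation and H3K27 methylation mark opposed states of developmental gene promoters. In mammals the H3K4 methyltransferases work in COMPASS-type complexes built around a shared core of WDR5, RBBP5, ASH2L and DPY30. The SET1 complexes place most H3K4 trimethylation at active promoters, the MLL1/2 complexes act at CpG-rich promoters including bivalent ones in ES cells, and the MLL3/4 complexes place H3K4 monomethylation at enhancers. KDM6A (also known as UTX) is a subunit of the MLL3/4 complexes and removes the H3K27 methylation that Polycomb repressive complex 2 (PRC2) writes, while KDM6B (also known as JMJD3) does so outside them.

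The cells carried the RNA of ES cells. All 7 ES cell markers examined lay above the median of all genes, at percentiles of 79.5 to 99.7 by base mean per kb, whereas the median percentile of 14 markers of primitive endoderm, trophoblast, neural cells and fibroblasts was 36.2. Of those 14 markers, 2 lay above the median, the fibroblast genes *Col1a1* and *Thy1*, at percentiles 56.8 and 56.3. In bulk RNA a small number of cells of another type and a low level in every cell cannot be told apart. *Yaf2* had a base mean of 3.24 at percentile 11.7, and *Rybp*, whose base mean pools cells with and without the intact gene, had 13983. The base means of all 20633 entries sum to 23389513, of which the 10 genes hold 0.128%. The depth of each library was not analysed here.

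By base mean, every one of the 10 genes lay above the middle of all entries above 0. Their base means ran from 463.3 for *Kdm6b* to 7000 for *Kdm6a*, against a median of 306.7 over the 19198 entries with a base mean above 0. The percentile of a gene, the percentage of entries with a lower value, ran from 56.6 to 96.9 by base mean, with a median of 85.9 over the 10. The genes fell into a higher set of 6 with base means of at least 2128 (*Kdm6a*, *Kmt2a*, *Kmt2c*, *Kmt2b*, *Kmt2d* and *Setd1a*) and a lower set of 4 with at most 652.0 (*Men1*, *Cxxc1*, *Setd1b* and *Kdm6b*). The highest base mean was 15.1 times the lowest. Among entries with at least 10 normalized counts, *Setd1b* and *Kdm6b* lay under the middle, at percentiles 48.4 and 46.8.

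These genes differ greatly in length, and a longer gene collects more reads. *Kmt2c* spans 225.1 kb with 59 exons and *Cxxc1* spans 5.36 kb with 15, a range of 42.0-fold. Introns make up between 49.9% of the span in *Kmt2d* and 94.9% in *Kdm6a*, against a median of 87.3% over all genes. Whether reads in introns had been counted was examined in pairs of entries of 1 gene in which 1 lies within the span of the other. In 104 such pairs, from 92 genes, the wider entry held fewer exonic bases than the narrower one, and in 101 of these pairs (97.1%) the wider entry had the higher or an equal base mean. The median ratio of the wider to the narrower entry in these pairs was 1.199 for base mean, 1.604 for span and 0.958 for exonic length. The base mean thus moved in the direction of span and not of exonic length, but by less than span did. These pairs do not show that the base mean is proportional to either length. Levels are compared below per kb of gene span, with values per kb of exons given for the pairs whose order changes.

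**Figure D1:**
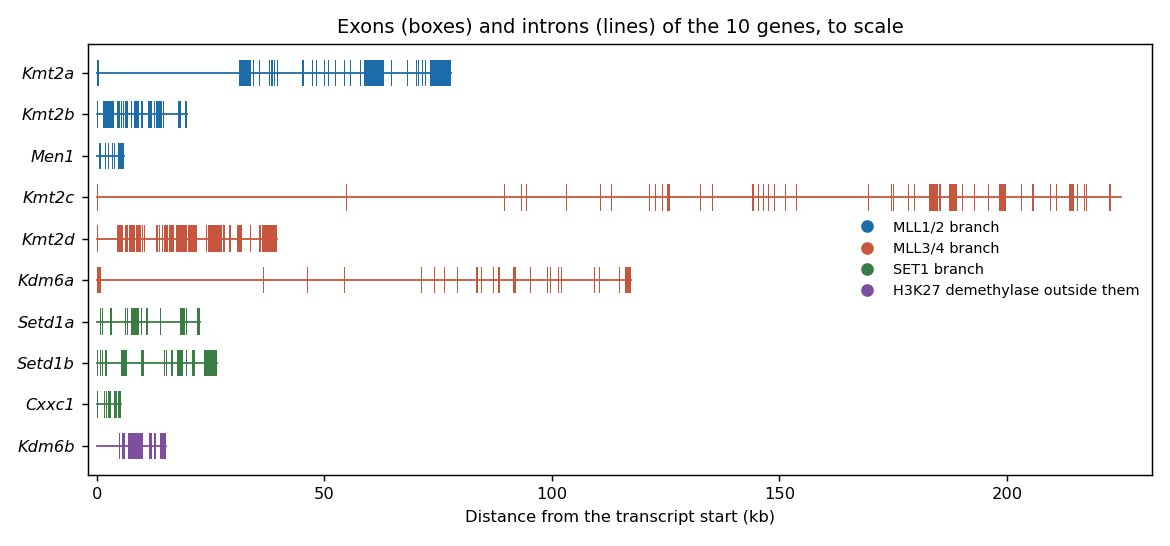
Exons (boxes) and introns (lines) of the 10 genes drawn to scale, as distance in kb from the transcript start; the thinnest exons are drawn at a minimum width. *Kmt2c* and *Kdm6a* are 93.4% and 94.9% intron, while *Men1* and *Cxxc1* are the shortest of the 10.

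**Figure D2:**
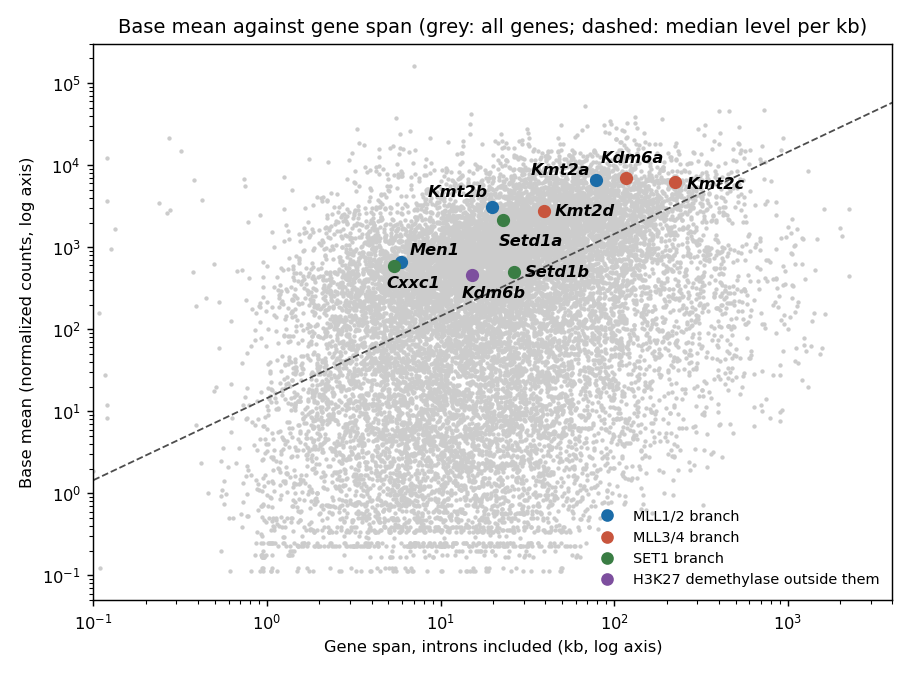
Base mean in normalized counts (log axis) against gene span in kb (log axis) for 17699 genes above 0 (grey) and the 10 genes (coloured by complex); the dashed line is the median level per kb. All 10 lie above the line, *Setd1b* nearest to it, and the 3 largest base means belong to the 3 longest genes of the 10.

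Per kb of gene span the 10 genes ranged from 19.0 for *Setd1b* to 154.2 for *Kmt2b*, an 8.12-fold range, against a median of 14.5 and quartiles of 1.36 and 53.1 over the 17699 genes with a span. All 10 lay above this median, and 7 lay above the upper quartile. Per kb of exons 8 of the 10 lay above the median of 118.1, and *Setd1b* (56.7) and *Kdm6b* (69.6) did not. In descending order of base mean per kb of span they were *Kmt2b* (154.2), *Men1* (110.5), *Cxxc1* (109.6), *Setd1a* (93.6), *Kmt2a* (83.7), *Kmt2d* (70.7), *Kdm6a* (59.6), *Kdm6b* (30.5), *Kmt2c* (28.0) and *Setd1b* (19.0). With no spread between replicates, it cannot be said which neighbours in this order differ. The order is unlike that of the base means. *Men1* and *Cxxc1*, in the lower set by base mean, followed *Kmt2b* directly per kb, and *Kmt2c*, among the 3 highest by base mean, fell to the last but 1. Over the 10 genes the Spearman correlation of base mean with span was 0.73, and over all genes it was 0.37. With exonic length it was 0.36 over the 10 genes and 0.38 over all genes. These points share the libraries and, as counts, the dependence on length.

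**Figure D3:**
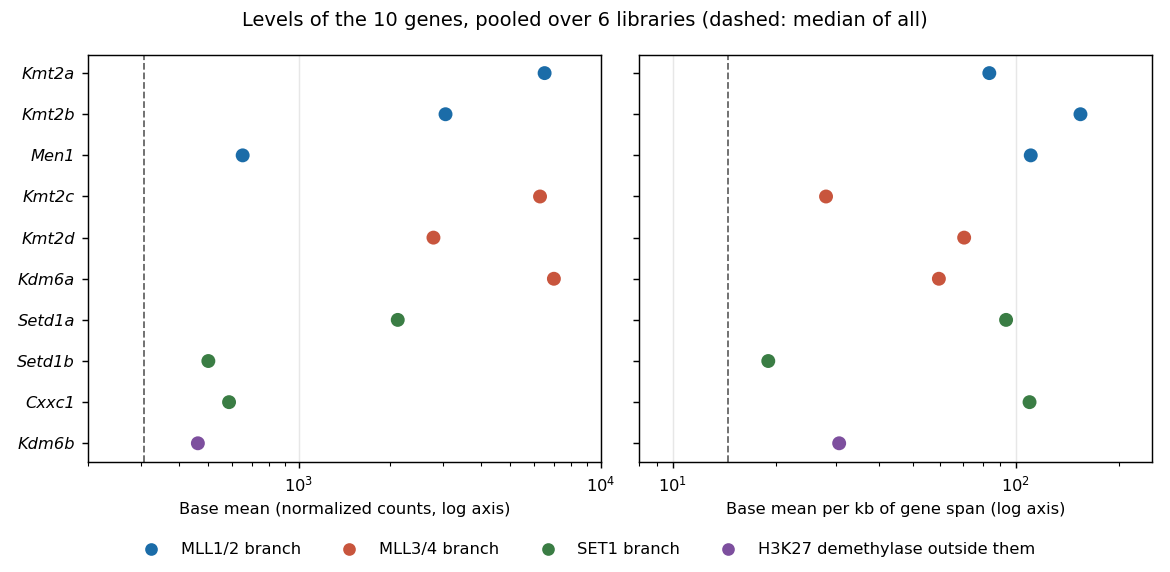
Base mean in normalized counts (left) and base mean per kb of gene span (right) of each of the 10 genes, on log axes and coloured by complex; each point is the authors' mean over 6 libraries and the dashed lines are the medians of 306.7 and 14.5. *Men1* and *Cxxc1* move from the lower set on the left to the upper end on the right, while *Kmt2c* moves the other way.

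The MLL1/2 branch had the most even levels per kb of span, within 1.84-fold. *Kmt2a* (also known as Mll1) encodes the founding mammalian Trithorax methyltransferase and *Kmt2b* the paralog that methylates bivalent promoters in ES cells. In mm10 coordinates *Kmt2a* occupies chr9:44803355-44881296 and *Kmt2b* chr7:30568858-30588717, both on the minus strand. The base mean of *Kmt2a* was 6521, at percentile 96.4, and that of *Kmt2b* was 3063, at percentile 89.2. *Kmt2a* is 3.92 times as long as *Kmt2b*, however, and per kb of span *Kmt2b* was 1.84 times as high as *Kmt2a*. Per kb of exons the 2 genes differed by 1.10-fold, with *Kmt2a* the higher. *Men1* (chr19:6334979-6340880, plus strand) encodes menin, the adaptor that both methyltransferases share. Its base mean was 652.0, which is 10.0-fold under that of *Kmt2a*, but it is 13.2 times shorter and its level per kb of span was 1.32 times that of *Kmt2a*. The order turned per kb of exons, with *Kmt2a* higher by 1.61-fold. The 3 genes of this branch lay between percentiles 83.9 and 92.4 per kb of span.

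The MLL3/4 branch held the 2 longest genes, *Kmt2c* and *Kdm6a*, and the highest base mean. *Kmt2c* and *Kmt2d* encode the paralogous enhancer methyltransferases MLL3 and MLL4, and *Kdm6a* the demethylase bound to both. *Kmt2c* (chr5:25273609-25498745) and *Kmt2d* (chr15:98831672-98871204) are on minus strands, and *Kdm6a* (chrX:18162575-18279936) is on the plus strand. The base mean of *Kmt2c* was 6297, which is 2.25 times the 2794 of *Kmt2d*. Per kb of span the order turned, and *Kmt2d* was 2.53 times as high as *Kmt2c*. Per kb of exons *Kmt2c* was again the higher, by 2.99-fold, so that the order of these paralogs rests on the length used. *Kmt2c* is the gene of the 10 that stands farthest from its base mean: it lay at percentile 96.2 by base mean and at percentile 61.7 per kb of span. Genes of such length had lower levels per kb than all genes. Among the 1604 genes whose span is within a factor of 2 of that of *Kmt2c*, the median level was 5.87 per kb, and *Kmt2c* lay at percentile 84.5 of those genes. *Kdm6a*, with 7000, had the highest base mean of the 10, and its 59.6 per kb of span stood beside 70.7 for *Kmt2d*. Per kb of exons, of which *Kmt2d* has far more, *Kdm6a* was 8.37 times as high as *Kmt2d*.

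The SET1 branch held the contrast between paralogs that varied least with the scale. *Setd1a* and *Setd1b* encode alternative catalytic subunits of the SET1 complexes. *Setd1a* (chr7:127777389-127800115) and *Setd1b* (chr5:123142193-123168629), both on plus strands, have similar spans of 22.7 and 26.4 kb. *Setd1a* had a base mean of 2128, at percentile 83.9, and *Setd1b* of 501.9, at percentile 57.9. The ratio of *Setd1a* to *Setd1b* was 4.24 by base mean, 4.93 per kb of span and 6.34 per kb of exons. *Setd1b* was the lowest of the 10 per kb of span, at percentile 54.2, under the 22.0 and 21.2 per kb of the fibroblast genes *Col1a1* and *Thy1*. It was also under them per kb of exons, with 56.7 against 62.3 and 63.6. By base mean it was above both, with 501.9 against 369.3 and 110.4. An annotated lincRNA on the other strand, Gm26745, covers 100% of the *Setd1b* span, and its share of these reads was not tested. On the strand of *Setd1a*, the annotated protein-coding gene Gm49388 covers 63.8% of the *Setd1a* span, so that reads of these 2 cannot be told apart. *Cxxc1* (chr18:74216131-74221493, plus strand) encodes the CpG-binding subunit CFP1, which brings SET1 complexes to unmethylated CpG islands. Its base mean of 587.7 was 3.62 times lower than that of *Setd1a*, and its 109.6 per kb of span was 1.17 times that of *Setd1a*. *Setd1a* was 1.60 times as high as *Cxxc1* per kb of exons.

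The H3K27 demethylases were unequal, by a margin that depended on the scale. *Kdm6b* (chr11:69398508-69413675, minus strand) is known to be induced by inflammatory and differentiation signals. With 463.3 it had the lowest base mean of the 10, at percentile 56.6, against 7000 for *Kdm6a*, a ratio of 15.1. As *Kdm6a* is 7.74 times longer, the ratio fell to 1.95 per kb of span, and it was 16.9 per kb of exons. The 1.95 rests on the 15.2 kb span of the matched *Kdm6b* transcript, while the RefSeq gene spans 21.9 kb. *Kdm6a* was therefore the higher of the pair on each of these scales. *Uty*, the Y-linked homolog of *Kdm6a*, whose protein has little or no demethylase activity, had a base mean of 7462 and a level of 50.2 per kb of span, beside 59.6 for *Kdm6a*. *Uty* was the higher per kb of exons, by 1.21-fold.

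**Figure D4:**
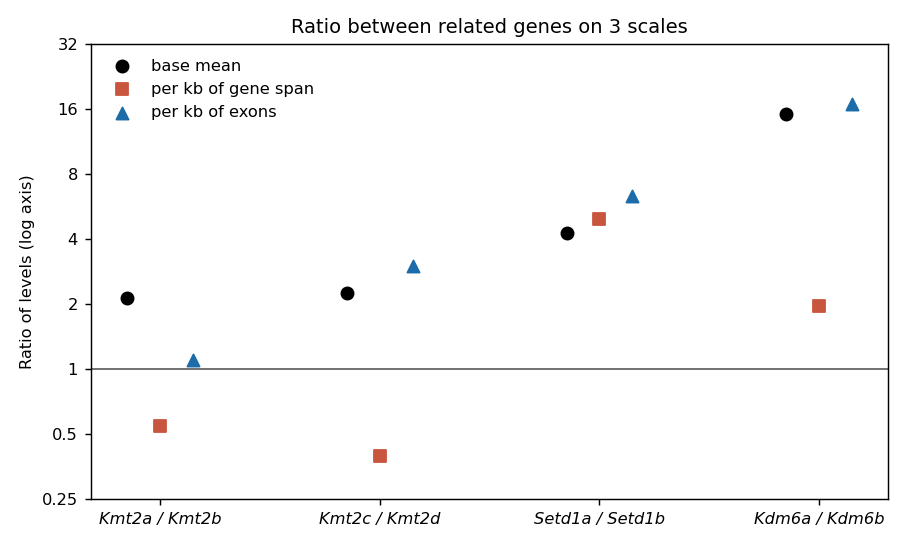
Ratio of the first gene to the second in 4 pairs of related genes (log axis), by base mean, per kb of gene span and per kb of exons; the line at 1 marks equal levels. The *Setd1a* to *Setd1b* ratio stays between 4.24 and 6.34, while *Kmt2a* to *Kmt2b* and *Kmt2c* to *Kmt2d* fall under 1 per kb of gene span.

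The subunits that the complexes share were among the higher genes. All 4 core genes (*Wdr5*, *Rbbp5*, *Ash2l* and *Dpy30*) lay above the upper quartile per kb of span, from 73.3 for *Dpy30* to 287.2 for *Ash2l*, with a median percentile of 88.1. The median over the 10 genes was 82.4. Per kb of exons the median percentiles lay farther apart, at 92.2 for the core and 66.7 for the 10 genes. *Ash2l*, which with RBBP5 stimulates the methyltransferases, was thus higher per kb than each of the 10. Of 7 partners of 1 or more branches outside the core, 6 lay above the median of all genes. *Hcfc1*, a cofactor of the SET1 and MLL1/2 complexes, had 236.1 per kb of span, and *Wdr82*, which ties SET1 to RNA polymerase II, had 158.4, both above *Setd1a*. The exception was *Hcfc2*, at 11.8 per kb and percentile 46.9. *Hcfc2* lay at percentile 54.0 per kb of exons, and on that scale all 7 exceeded the median. In the MLL3/4 branch *Paxip1* had 58.5 per kb, beside 59.6 for *Kdm6a*, and *Ncoa6* had 23.8, beside 28.0 for *Kmt2c*. *Pagr1a*, the third partner listed for this branch, had 151.2 per kb, above each of its 3 members. Per kb of exons *Pagr1a* had 246.5, under *Kdm6a* (1179) and *Kmt2c* (420.7) and above *Kmt2d* (140.9). On that scale *Paxip1* (514.8) lay well under *Kdm6a*, and *Ncoa6* (174.0) well under *Kmt2c*.

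PRC2, which writes the mark that *Kdm6a* and *Kdm6b* erase, was set beside them. Its 4 core genes ranged from 49.3 per kb of span for *Ezh1* to 320.7 for *Suz12*. *Ezh2*, the main methyltransferase of PRC2 in ES cells, had 94.6 per kb, which was 1.59 times *Kdm6a* and 3.10 times *Kdm6b*. By base mean *Kdm6a* was the higher of the first pair, with 7000 against 6142 for *Ezh2*, while *Ezh2* was 13.3 times *Kdm6b*. Per kb of exons *Ezh2* was 1.88 times *Kdm6a* and 31.8 times *Kdm6b*.

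**Figure D5:**
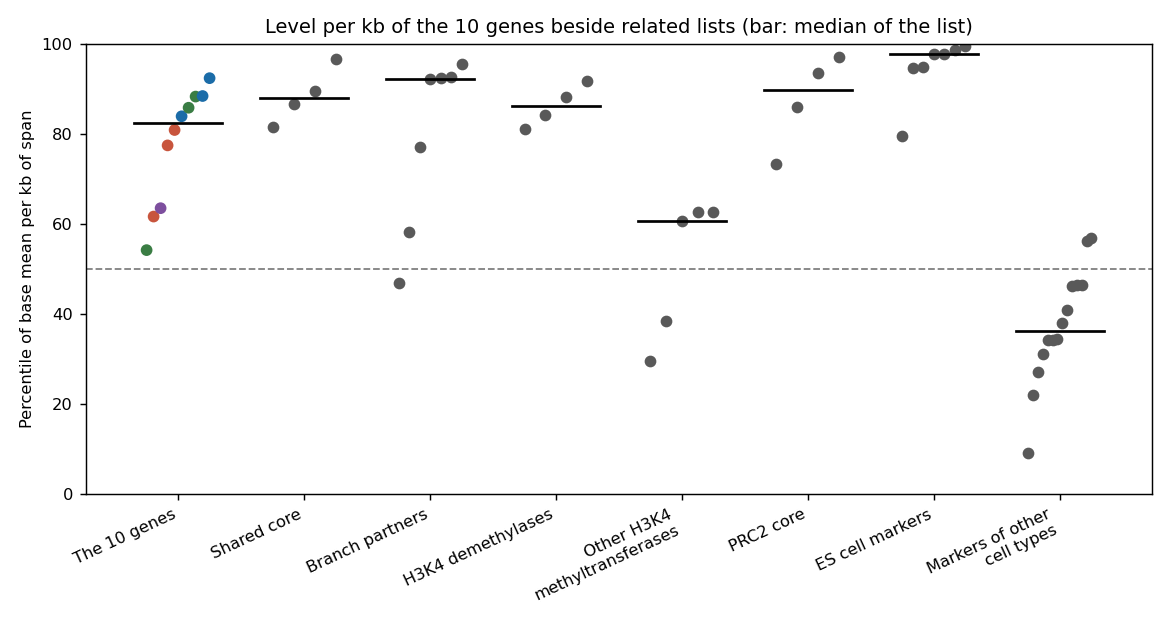
Percentile of base mean per kb of gene span among 17699 genes for the 10 genes (coloured by complex) and for related lists (grey); each point is 1 gene, the bars are medians and the dashed line is the middle of all genes. The 10 genes spread from percentile 54.2 to 92.4, around a median of 82.4, beside 88.1 for the shared core and 36.2 for markers of other cell types.

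CpG dinucleotides in the promoter are a feature that the choice of genes did not use, and one that CFP1 and the CXXC domains of KMT2A and KMT2B are known to bind when unmethylated. The set of promoter windows used here (GRCm38.p6) lacked some of the 10 genes, whose promoters were therefore not examined. It held a window for 6 of the 10 (*Kmt2a*, *Kmt2c*, *Kmt2d*, *Setd1a*, *Kdm6a* and *Men1*). In the 250 bases before the start site they held between 8 and 48 copies of CG, which reads the same on both strands, and all 6 exceeded the median of 6 over 32851 windows, of which 92.1% held at least 1. *Kmt2a* held 29, *Kmt2d* 26, *Setd1a* 25 and *Kdm6a* 15. The windows with the most and the fewest are shown to let this contrast be seen, with each CG in capitals.
Kmt2c, minus strand, chr5:25498784-25499033: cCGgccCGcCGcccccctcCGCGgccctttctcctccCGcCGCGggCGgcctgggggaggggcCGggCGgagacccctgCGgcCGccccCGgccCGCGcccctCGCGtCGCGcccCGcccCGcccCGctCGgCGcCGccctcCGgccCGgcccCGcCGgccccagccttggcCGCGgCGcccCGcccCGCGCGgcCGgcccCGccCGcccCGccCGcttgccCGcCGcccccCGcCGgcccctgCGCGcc
Men1, plus strand, chr19:6334729-6334978: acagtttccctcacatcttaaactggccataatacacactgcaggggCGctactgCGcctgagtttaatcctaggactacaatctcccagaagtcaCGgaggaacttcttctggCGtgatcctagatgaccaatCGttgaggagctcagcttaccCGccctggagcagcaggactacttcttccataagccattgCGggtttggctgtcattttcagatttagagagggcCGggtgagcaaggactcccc
The *Kmt2c* window held 48, a number reached by 0.186% of all windows, although its start site lies 38 bp from that of the entry used here, and 91.6% of its bases were G or C. The *Men1* window held 8, and 43.0% of all windows held at least that many. *Men1* has 3 annotated windows, of which the one at the start of the entry is shown, and the other two held 9 and 10. Their levels had no fixed order, as *Men1* was the higher per kb of span, with 110.5 against 28.0, and *Kmt2c* the higher per kb of exons, with 420.7 against 245.9.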

How the data were processed

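The study sequenced nuclear RNA from 3 UNT and 3 OHT libraries as 40 bp paired-end reads. The authors filtered rRNA fragments out, mapped the other reads to mm10 (STAR, and bowtie2 for what STAR left unmapped), counted pairs per gene of a filtered RefSeq set and compared the groups in DESeq2. Versions are not given in the sources used here. In the deposited table the base mean is a signal: library-size-normalized counts averaged across the 6 libraries. The remaining columns hold the authors' own comparison of OHT with UNT (log2 fold change, its standard error, a Wald statistic, p-values and a threshold call) and were not used. A count test was planned only for a table with counts per library. The deposited table has no values per library, so that no test was run and no p-value is given.

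Symbols came from RefSeq (GRCm38.p6) for 20450 of 20633 entries and from GENCODE vM21 for a further 110, among them *Kmt2a*. Both use the mm10 assembly. The entry with the highest base mean was kept for each gene. Span and exonic length are those of the GENCODE transcript matched to the entry, found for 20264 entries. Levels are base means divided by length in kb, and percentiles are over entries or genes above 0. Nested entries were compared where both base means were at least 50 and the wider span was at least 1.2 times the narrower. The members and lists were chosen with earlier results of these data known. The genes named are the 10 members, genes of the lists of complex partners, demethylases, methyltransferases, PRC2 and cell type markers, and overlapping genes. Python 3.11.15 with numpy 2.4.6, pandas 2.3.3, scipy 1.17.1 and matplotlib 3.10.9 was used.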

Additional observations from a re-analysis of the deposited data

How the results depend on the processing

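No paired analysis was possible because the base mean pools all libraries. For the same reason the test of OHT against UNT, its alternatives and leaving out replicates were not run, and no result here has a replicate check.

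The median percentile of the 10 genes by base mean, 85.9, was 86.9 with entries at 0 included, 82.7 where a base mean minimum of 10 was set and 85.9 with 1 entry per gene. Per kb of span it was 82.4, against 78.4 with that minimum and 83.7 when each gene was ranked among genes whose span is within a factor of 2 of its own. Per kb of exons it was 66.7. The number of the 10 above the median per kb, 10, was 9 with that minimum, where *Setd1b* fell under it, and 8 per kb of exons, where *Setd1b* and *Kdm6b* lay at percentiles 40.4 and 42.8. It stayed at 10 with the lowest entry or the sum of entries of each gene, but the 10 have 1 entry each and their values could not change. With the span of the RefSeq gene table, an alternative chosen after seeing the data, it was 10 as well, and the median percentile was 82.6. With that span *Kdm6b* fell from percentile 63.5 to 57.9, under *Kmt2c* at 63.1.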

Other observations

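The H3K4 demethylases, which erase the mark that the methyltransferases write, were all among the higher genes by RNA level. *Kdm5a*, *Kdm5b*, *Kdm5c* and *Kdm1a* lay between 71.4 and 146.0 base mean per kb of gene span, each above the upper quartile of all genes, with a median percentile of 86.2 beside 82.4 for the 10 genes. Per kb of exons these medians were 88.0 and 66.7. *Kdm5b* was the highest of the 4 per kb of span and by base mean, where its 10963 lay above each of the 10. Per kb of exons *Kdm1a* was the highest of the 4, with 1474 against 1258 for *Kdm5b*.

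Of the methyltransferases outside the COMPASS-type complexes, none of *Prdm9*, *Setd7*, *Smyd1*, *Smyd2* and *Smyd3* reached the upper quartile per kb of span, and their highest level was the 29.4 per kb of *Setd7*. *Prdm9*, which marks recombination sites in meiosis, had 6.09 per kb at percentile 38.5, and *Smyd1*, a muscle gene, had 2.41 at percentile 29.7. *Smyd3* had a base mean of 15081 but spans 566.1 kb, and its level of 26.6 per kb stood beside 28.0 for *Kmt2c*. *Smyd3* had 2195 per kb of exons, above each of the 10, at percentile 96.9. On that scale *Smyd2* had 731.4, at percentile 84.7, while *Setd7*, *Prdm9* and *Smyd1* lay at percentiles 57.4, 35.6 and 35.3. *Ash1l*, a Trithorax-group gene that encodes an H3K36 methyltransferase, had a base mean of 3910 and a level of 34.4 per kb.

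Annotated genes overlap other members by small parts of their span. The antisense gene AC061963.1 covers 4.37% of *Kmt2a* and Kdm6bos covers 7.83% of *Kdm6b*. The libraries were made with a kit that keeps strand. Whether the counting used it is not given in the sources used here.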
